A study of Rattus norvegicus with 27 samples.

Results

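The Kcn genes encode the pore-forming subunits of potassium channels and several of the smaller proteins that assemble with them. They were taken as every non-control probe whose gene name on the array starts with Kcn, with Kcnj13 left out, which gave 105 probes for 85 genes in 20 subfamilies. A probe counted as detected when, in some group, the scanner software marked it well above background on 2 or 3 of the 3 arrays, and 88 of the 105 Kcn probes, for 73 genes, met this, as did 32078 of all 41012 non-control probes. Each level below is the log2 of a probe's processed fluorescence signal minus the log2 of the 75th percentile of its array, so a level of 0 is the brightness of that percentile. A level belongs to 1 probe and is not set against that of another probe.

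Potassium channels let potassium leave the cell and so hold the resting membrane potential, end action potentials and set how readily a neuron fires again. The voltage-gated Kcna, Kcnb, Kcnc, Kcnd, Kcnh and Kcnq pores open on depolarization, the inward rectifiers (Kcnj) and the 2-pore leak channels (Kcnk) hold the resting potential, and the Kcnma, Kcnn and Kcnt pores respond to calcium or sodium inside the cell. The Kcnf, Kcng, Kcns and Kcnv subunits form no channel alone and modify Kcnb pores, while the Kcnab, Kcne, Kcnip and Kcnmb proteins are accessory subunits. In the pancreatic beta cell the Kcnj11 channel, closed by ATP, couples glucose to insulin release, and related channels are found in neurons and blood vessels.

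RNA from the hippocampus, prefrontal cortex and striatum of male rats was hybridized to 27 one-colour arrays, 3 per group in 9 groups. The animals were untreated Wistar rats as controls, Goto-Kakizaki rats, an inbred line derived from Wistar rats that develops type 2 diabetes without obesity, and Wistar rats made diabetic with streptozotocin, a toxin of beta cells, at 65 mg/kg given at 6 weeks of age and 4 weeks before the tissue was taken. All were 10 weeks old, with a labelled blood sugar of 7.64 mmol/l in controls, 13.9 mmol/l in Goto-Kakizaki rats and 26.34 mmol/l after streptozotocin. Each group held 9 animals combined into 3 pools of 3, and the regions were dissected from the same animals. Since the controls are not of the Goto-Kakizaki line, line and diabetes cannot be told apart in that comparison. A p-value or SE here rests on the spread between pools, estimated for each probe over all 9 groups together. It is not the spread of the compared groups alone. That spread was unequal: the median standard deviation of the Kcn probes was 0.0835 in Goto-Kakizaki hippocampus and 0.282 in Goto-Kakizaki striatum. In tissue RNA, fewer cells of a type and less RNA per cell cannot be told apart.

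The share of probes well above background was between 67.4% and 75.3% per array over all probes and between 73.3% and 82.9% over the Kcn probes, none of which was saturated or marked as an outlier spot. The summed level of 9 markers of striatal projection neurons was 7.46 to 8.43 in the striatum, 1.98 to 2.64 in the hippocampus and 3.34 to 5.02 in the prefrontal cortex. That of 6 hippocampal neuron markers was 3.55 to 4.11 in the hippocampus, 2.80 to 3.23 in the prefrontal cortex and 0.98 to 1.49 in the striatum, and that of 5 cortical projection neuron markers 3.25 to 3.74 in the prefrontal cortex, 1.52 to 1.99 in the hippocampus and 2.12 to 2.85 in the striatum. Each list was thus highest in the tissue labelled for it, with no overlap between regions. In the prefrontal cortex 4 of the 9 striatal markers were called lower in Goto-Kakizaki rats against controls (median log2 difference -1.22). Of all probes 2.49% were called there, 0.741% of them higher than controls. After streptozotocin 2 of 9 were called lower (median -0.86), where 0.98% of all probes were called and 0.324% called higher. Their part in the cortical results below was not tested. The arrays lay on 7 slides, and the groups differed in the slides they used, with every Goto-Kakizaki striatum array on slide 4. No slide held both groups for Goto-Kakizaki against control in the prefrontal cortex, or for streptozotocin against control in the hippocampus and striatum. The same held for Goto-Kakizaki against streptozotocin in every region and for control hippocampus against the other control regions. Within these comparisons slide and group cannot be told apart.

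The probes of 4 genes carried every call of this family between diabetic and control rats, at the limits given below, and the first 30 of their 60 bases are shown here, 5′ to 3′, as the array design lists them. A second Kcnq5 probe and both Kcna1 probes are included because probes of these genes did not read the same.
Kcnq3 A_44_P389904: ttggataccaagctaatatagtttagtcag
Kcnj12 A_42_P603096: gagcaggtcctagccatggtgggagaaggc
Kcnj16 A_42_P833096: caatatcttatctcctaagcacaacagatg
Kcnq5 A_44_P953483: tgtaggtttagatagtgtccatattggaat
Kcnq5 A_44_P520136: atagcagttgtttctgcaaaaactcagggt
Kcna1 A_42_P475214: ggtaagcatgtttgaatccgataacattta
Kcna1 A_44_P231457: gtaactgcaccgcaactgatcaaaactgcg
The whole 60 bases held 35% G and C in the Kcnq3 probe, in Kcnq5 A_44_P953483 and in Kcna1 A_42_P475214, against 43.3% to 45.0% in the other probes of this set. Among the 15 Kcn genes with several probes, 26 of 27 pairs of probes shared no run longer than 14 bases, so most pairs read separate stretches of a transcript.

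Kcnq3, Kcnj12 and Kcnj16 were the only Kcn genes with a call between Goto-Kakizaki and control rats, and every one of these calls was an increase. A probe was called when limma's adjusted p was under 0.05 and the difference was at least 2-fold. In the hippocampus Kcnq3 and Kcnj12 were called, 2 of 86 probes, where 1.92% of all probes were called and 0.782% were called higher. Kcnq3, Kcnj12 and Kcnj16 were called in the prefrontal cortex, 3 of 86, against 2.49% of all probes called and 0.741% called higher. The same 3 of 86 were called in the striatum, against 3.09% and 1.62%. After streptozotocin only 1 of 86 probes was called in each region, namely Kcnq3 in the hippocampus and prefrontal cortex and Kcnq5 in the striatum, where 0.639%, 0.98% and 0.866% of all probes were called in that order of regions, and 0.391%, 0.324% and 0.549% called higher. Taken over both directions, the share of Kcn probes called lay near that of all probes. Both diabetic groups were set against the same control arrays. Some of these calls were lost under other tests, as given in the closing sections. Pools did not overlap at 45, 33 and 24 of the 86 Kcn probes for Goto-Kakizaki against control hippocampus, prefrontal cortex and striatum. For streptozotocin against control they did not at 29, 32 and 21, so such a separation is common among these probes.

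Kcnq3 encodes a subunit of the M-channel, a slowly opening potassium channel that restrains repetitive firing and is closed by muscarinic receptors. In the hippocampus its level was 1.05, 0.64 and 0.98 in control pools, 2.63, 2.58 and 2.58 in Goto-Kakizaki pools and 2.22, 2.05 and 2.0 in streptozotocin pools. Its level in the prefrontal cortex was 0.57, 0.33 and 0.53 in controls, 2.13, 1.69 and 1.15 in Goto-Kakizaki rats and 1.55, 1.47 and 1.74 after streptozotocin. In the striatum it was 0.66, 0.28 and 0.86 in controls, 2.24, 1.38 and 2.05 in Goto-Kakizaki rats and 1.85, 1.50 and 1.35 after streptozotocin. Every diabetic pool lay above every control pool of its region.

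The Kcnq3 level was 3.27-fold higher in Goto-Kakizaki than in control hippocampus (log2 difference 1.71 ± 0.22, SE, n = 3 pools per group, adjusted p = 2.5e-05). The same difference was 1.18 ± 0.22 in the prefrontal cortex (2.26-fold, adjusted p = 0.0014) and 1.29 ± 0.22 in the striatum (2.45-fold, adjusted p = 0.00049). The differences of this rise between regions did not pass limma's test (adjusted p between 0.51 and 0.89). After streptozotocin the log2 difference was 1.20 ± 0.22 in the hippocampus (2.3-fold, adjusted p = 0.0043) and 1.11 ± 0.22 in the prefrontal cortex (2.15-fold, adjusted p = 0.0087). In the striatum it was 0.97 ± 0.22 (adjusted p = 0.019), which is 1.96-fold and below the 2-fold limit. With slides 5 to 7 as covariates Kcnq3 lost its call in Goto-Kakizaki prefrontal cortex (1.12, adjusted p = 0.13) and in streptozotocin hippocampus (1.26, adjusted p = 0.12). Within each slide that held both groups 1 side was a single array, so no slide alone carries a test. The difference was 1.62 in Goto-Kakizaki hippocampus (1 array against 2) and 1.23 in Goto-Kakizaki striatum (3 against 1). It was 1.13, 1.21 and 0.98 on the 3 slides with streptozotocin prefrontal cortex (1 against 1). The call in Goto-Kakizaki prefrontal cortex rested on pool 1 (0.94 without it) and that in streptozotocin prefrontal cortex on pool 3 (1.03 without it, adjusted p = 0.056).

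Kcnj12 encodes Kir2.2, a strong inward rectifier that stabilizes the resting potential. Its hippocampal level was -0.13, -0.25 and -0.28 in controls, 1.35, 1.33 and 1.44 in Goto-Kakizaki rats and 0.23, 0.40 and 0.34 after streptozotocin. Cortical levels were 1.60, 1.30 and 0.86 in controls, 2.48, 2.63 and 2.70 in Goto-Kakizaki rats and 2.22, 2.14 and 2.25 after streptozotocin. In the striatum it was 1.20, 0.84 and 0.44 in controls, 1.97, 2.54 and 1.98 in Goto-Kakizaki rats and 1.64, 1.54 and 1.46 after streptozotocin. In all 3 regions the pools were ordered without overlap, with controls lowest, streptozotocin between and Goto-Kakizaki highest.

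The Goto-Kakizaki rise of Kcnj12 was 1.59 ± 0.18 in the hippocampus (3.02-fold, adjusted p = 3.6e-06), 1.35 ± 0.18 in the prefrontal cortex (2.55-fold, adjusted p = 3e-05) and 1.34 ± 0.18 in the striatum (2.53-fold, adjusted p = 3.1e-05). After streptozotocin the adjusted p passed below 2-fold in the prefrontal cortex (0.95 ± 0.18, adjusted p = 0.0061) and striatum (0.72 ± 0.18, adjusted p = 0.03) and did not pass in the hippocampus (0.54 ± 0.18, adjusted p = 0.13). The Goto-Kakizaki hippocampus also stood 2.07-fold above the streptozotocin hippocampus (1.05 ± 0.18, adjusted p = 0.0005). The Kcnj12 values moved with the slides: with slides 5 to 7 as covariates the Goto-Kakizaki difference was 0.83 in the prefrontal cortex (adjusted p = 0.11), 0.96 in the striatum (adjusted p = 0.02) and 0.53 against the streptozotocin hippocampus (adjusted p = 0.34). Within the slide that held both groups it was 1.55 in the hippocampus (1 array against 2) and 0.96 in the striatum (3 against 1), with no test.

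Kcnj16 encodes Kir5.1, which joins Kir4.1 (Kcnj10) in the potassium channels of astrocytes and kidney tubules. Its level in the prefrontal cortex was -2.56, -2.28 and -2.32 in controls, -1.42, -1.18 and -1.47 in Goto-Kakizaki rats and -2.22, -2.27 and -2.10 after streptozotocin. In the striatum it was -2.69, -2.28 and -2.70 in controls, -1.98, -1.40 and -1.18 in Goto-Kakizaki rats and -2.35, -1.86 and -2.13 after streptozotocin. In the hippocampus, where it was highest in controls, it was -1.39, -1.35 and -1.34 in controls, -0.76, -1.03 and -0.83 in Goto-Kakizaki rats and -1.61, -1.21 and -1.63 after streptozotocin. Goto-Kakizaki pools lay above control pools in every region, while streptozotocin pools overlapped with controls in the hippocampus and striatum.

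The rise of Kcnj16 was 1.03 ± 0.18 in Goto-Kakizaki prefrontal cortex (2.04-fold, adjusted p = 0.00055) and 1.04 ± 0.18 in the striatum (2.05-fold, adjusted p = 0.00046), and the hippocampal difference was 0.49 ± 0.18 (adjusted p = 0.13). The differences of this effect between regions did not pass (adjusted p = 0.42 against the prefrontal cortex and 0.26 against the striatum). Streptozotocin differences were -0.12, 0.19 and 0.45 in hippocampus, prefrontal cortex and striatum (adjusted p = 0.85, 0.7 and 0.18). Goto-Kakizaki levels were above streptozotocin levels below 2-fold in all 3 regions (0.61, 0.84 and 0.59, adjusted p = 0.033, 0.0028 and 0.03). No slide held both of these diabetic groups in any region, nor both Goto-Kakizaki and control prefrontal cortex. The calls stood close to the 2-fold limit: without 1 pool, among them prefrontal cortex control pool 1 (0.94) and striatum control pools 1 and 3 or Goto-Kakizaki pools 2 and 3 (0.87 to 0.98), Kcnj16 fell below it. Its partner Kcnj10, added here after its values were seen, gave log2 differences of -0.34, -0.26 and 0.03 in the Goto-Kakizaki regions (adjusted p = 0.24, 0.34 and 0.92).

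**Figure D1:**
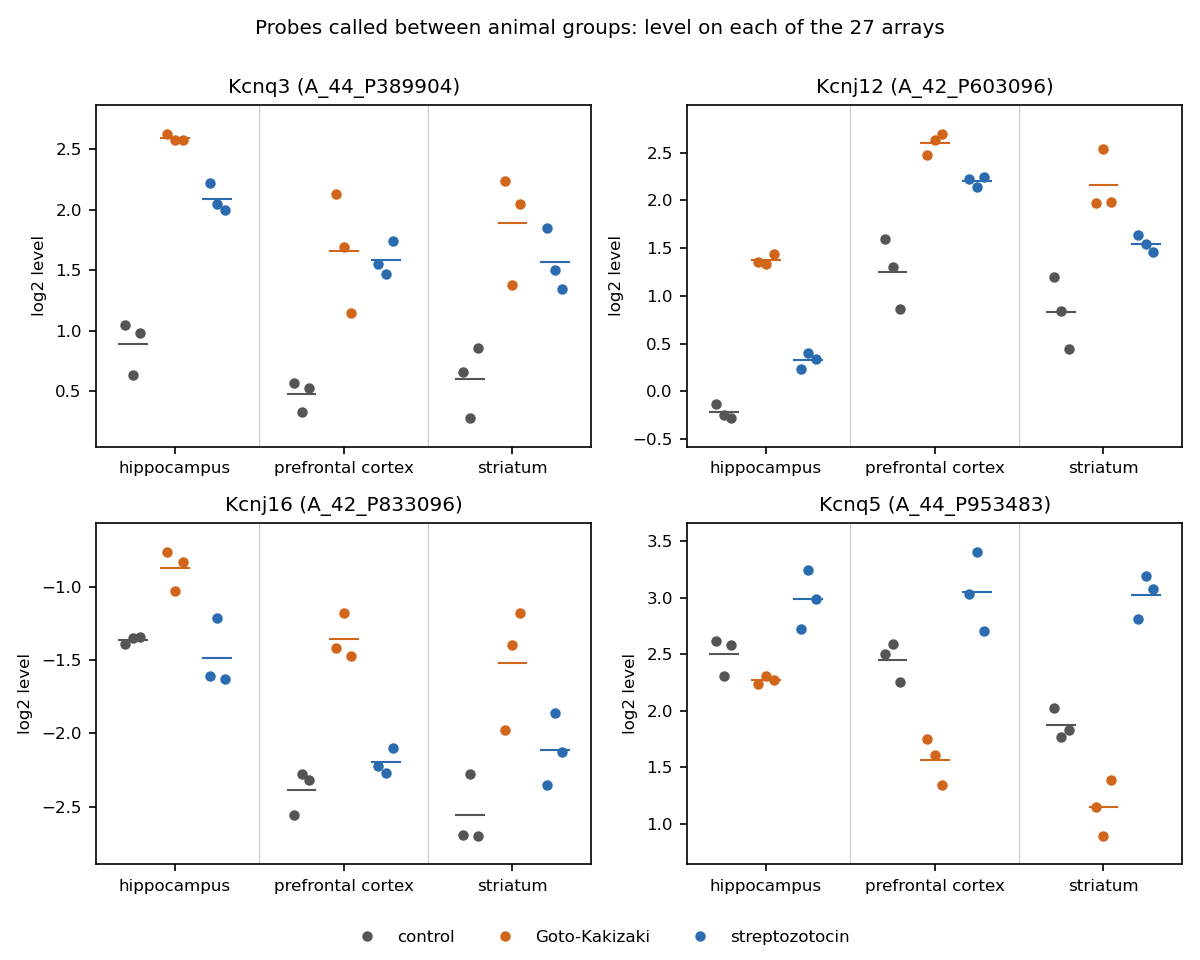
Log2 level of 4 Kcn probes (vertical axis) on each of the 27 arrays, by region and animal group (horizontal axis). Dots are pools, 3 per group, and short lines are group means. Kcnq3 and Kcnj12 were higher in every Goto-Kakizaki pool than in any control pool of the region, and Kcnq5 A_44_P953483 was highest after streptozotocin and lowest in Goto-Kakizaki rats.

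Kcnq5, another M-channel subunit, differed in opposite directions in the diabetic groups at 1 of its 2 probes. At A_44_P953483 the striatal level was 2.02, 1.77 and 1.83 in controls, 1.15, 0.89 and 1.39 in Goto-Kakizaki rats and 2.81, 3.19 and 3.08 after streptozotocin. The cortical levels were 2.50, 2.59 and 2.25 in controls, 1.75, 1.61 and 1.34 in Goto-Kakizaki rats and 3.03, 3.41 and 2.71 after streptozotocin. The hippocampal levels were 2.62, 2.31 and 2.58 in controls, 2.24, 2.31 and 2.27 in Goto-Kakizaki rats and 2.72, 3.25 and 2.99 after streptozotocin. The 3 groups did not overlap in the striatum or the prefrontal cortex, and in the hippocampus 1 Goto-Kakizaki pool and the lowest control pool both read 2.31.

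Kcnq5 A_44_P953483 rose by 1.15 ± 0.18 in the streptozotocin striatum (2.22-fold, adjusted p = 0.00074). It was lower in Goto-Kakizaki than in control rats below 2-fold in the prefrontal cortex (-0.88 ± 0.18, adjusted p = 0.0025) and striatum (-0.73 ± 0.18, adjusted p = 0.008). The direct comparison of the diabetic groups put it 2.79-fold lower in Goto-Kakizaki prefrontal cortex (-1.48 ± 0.18, adjusted p = 6.3e-06) and 3.69-fold lower in Goto-Kakizaki striatum (-1.88 ± 0.18, adjusted p = 2.4e-07). In the hippocampus the difference was -0.71 ± 0.18 (adjusted p = 0.012). The streptozotocin call was lost when only the striatal arrays were fitted (adjusted p = 0.068). Streptozotocin striatum shared no slide with control or Goto-Kakizaki striatum, and Goto-Kakizaki prefrontal cortex shared none with the other cortical groups. Slide and group cannot be told apart in those comparisons.

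The other Kcnq5 probe, A_44_P520136, did not follow. Its striatal level was -1.08, -1.24 and -0.72 in controls, -0.85, -1.45 and -0.85 in Goto-Kakizaki rats and -0.58, -1.30 and -1.13 after streptozotocin. Those striatal groups overlapped, and no comparison of animal groups passed at this probe. In the prefrontal cortex its streptozotocin pools lay below the control and Goto-Kakizaki pools. Streptozotocin differences were -0.34, -0.51 and 0.01 in hippocampus, prefrontal cortex and striatum (adjusted p = 0.52, 0.22 and 0.98). At A_44_P953483 they were 0.48, 0.60 and 1.15 (adjusted p = 0.17, 0.07 and 0.00074), so the cortical values of the probes had opposite signs.

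Kcna1, the Kv1.1 channel of axons and their terminals, was named after its values were seen, because its probes moved apart. At A_42_P475214 the striatal level was -1.10, -1.44 and -1.59 in controls, -0.48, -0.67 and -0.50 in Goto-Kakizaki rats and -0.41, -0.78 and -0.62 after streptozotocin. At A_44_P231457 it was 4.36, 4.73 and 4.42 in controls, 4.00, 3.89 and 3.88 in Goto-Kakizaki rats and 3.97, 4.03 and 4.08 after streptozotocin. Diabetic pools were thus all above controls at 1 probe and all below them at the other.

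The Goto-Kakizaki differences at Kcna1 A_42_P475214 were 0.79 ± 0.15 in the hippocampus (adjusted p = 0.0019) and 0.83 ± 0.15 in the striatum (adjusted p = 0.00084), and those at A_44_P231457 were -0.34 ± 0.09 (adjusted p = 0.029) and -0.58 ± 0.09 (adjusted p = 0.00019). In the streptozotocin striatum they were 0.77 (adjusted p = 0.0062) and -0.48 (adjusted p = 0.0054). All lay below 2-fold. These probes share no run longer than 6 bases, and no direction for the Kcna1 transcript as a whole can be given from them.

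**Figure D2:**
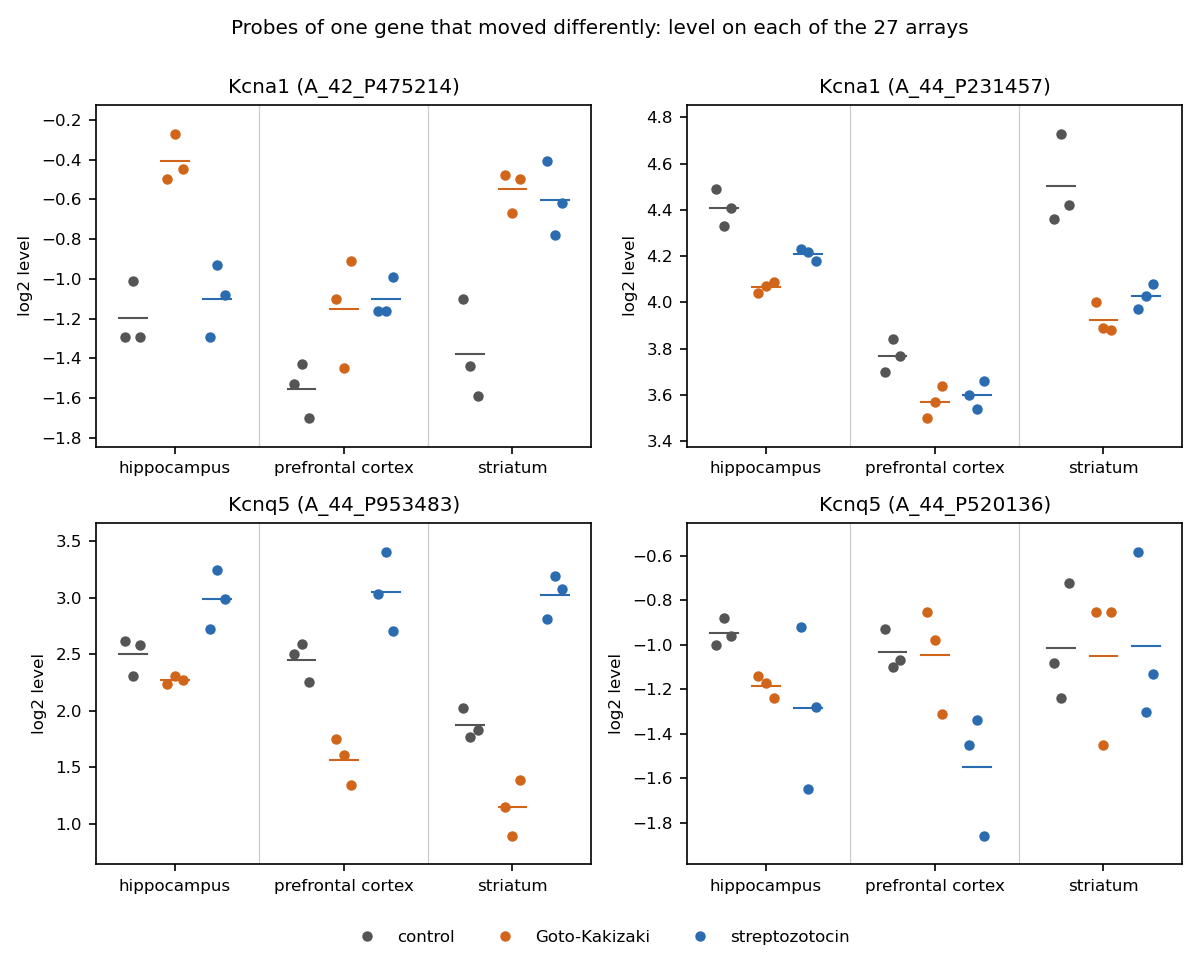
Log2 level (vertical axis) of both probes of Kcna1 and both probes of Kcnq5 on each array, by region and animal group (horizontal axis). Dots are pools and short lines are group means; the probes of one gene did not change alike between animal groups.

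With the fold limit set aside, more Kcn probes passed the adjusted p in Goto-Kakizaki rats. Of the cortical values 11 passed above controls and 2 below, 15.1% of those tested against 8.8% of all probes. Of the striatal values 11 passed above and 8 below, 22.1% against 13.8%, and of the hippocampal values 3 above and 2 below, 5.81% against 5.11%. After streptozotocin the counts were 1 higher and 1 lower in the hippocampus (2.33% against 2.2%), 3 higher and 1 lower in the prefrontal cortex (4.65% against 2.67%) and 4 higher and 2 lower in the striatum (6.98% against 3.25%).

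Among those below 2-fold in Goto-Kakizaki prefrontal cortex were a voltage-gated channel and several accessory subunits. Kcnh3, an ether-à-go-go-like channel of the forebrain, read 2.27, 2.49 and 2.14 in controls and 2.74, 3.01 and 2.82 in Goto-Kakizaki rats (0.56, adjusted p = 0.017). Kcnab2, a cytoplasmic beta subunit of Kcna channels, read -1.31, -1.04 and -1.12 against -0.77, -0.45 and -0.29 (0.66, adjusted p = 0.0021). At both genes all Goto-Kakizaki pools lay above all control pools.

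Kcnip4, a calcium sensor of Kcnd channels, read 1.33, 1.32 and 1.01 in control and 2.01, 1.66 and 1.82 in Goto-Kakizaki prefrontal cortex (0.61, adjusted p = 0.0048). Kcnma1, the large-conductance calcium-activated channel, read -0.87, -0.73 and -0.85 against -0.21, -0.32 and -0.29 at A_44_P259947 (0.55 ± 0.09, adjusted p = 0.00051). The groups did not overlap at these probes. The other Kcnma1 probe, A_43_P15328, read -1.77, -1.60 and -2.11 in controls and -1.43, -1.54 and -2.12 in Goto-Kakizaki rats, with groups that overlapped (0.13 ± 0.20, adjusted p = 0.79). In the striatum Kcnf1, a silent subunit, read -3.39, -4.03 and -3.66 in controls and -3.04, -2.85 and -2.95 in Goto-Kakizaki rats (0.74 ± 0.23, adjusted p = 0.035), and Kcnv1, another silent subunit, read 2.67, 2.90 and 2.48 against 2.32, 1.94 and 2.07 (-0.57 ± 0.13, adjusted p = 0.0064). Kcnf1 was higher and Kcnv1 lower in every Goto-Kakizaki pool.

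Kcnk1, Kcnj9 and Kcnj11 are named after their values were seen. Kcnk1 encodes TWIK-1, a weak leak channel, and its hippocampal level was -0.31, -0.14 and -0.07 in controls, -0.99, -1.04 and -1.19 in Goto-Kakizaki rats and -0.53, -0.39 and -0.39 after streptozotocin. Kcnk1 was lower in Goto-Kakizaki rats in the hippocampus (-0.90 ± 0.13, adjusted p = 0.00014), striatum (-0.83 ± 0.13, adjusted p = 0.00025) and prefrontal cortex (-0.44, adjusted p = 0.041), all below 2-fold. Kcnj9, the Kir3.3 subunit of G-protein-gated channels, was lower after streptozotocin in the hippocampus (-0.79 ± 0.19, adjusted p = 0.028) and striatum (-0.71, adjusted p = 0.042), where its striatal level was -1.02, -1.60 and -1.79 in controls and -2.07, -2.27 and -2.19 after streptozotocin. Its Goto-Kakizaki differences were -0.49, -0.53 and -0.33 in hippocampus, prefrontal cortex and striatum (adjusted p = 0.17, 0.088 and 0.26). Goto-Kakizaki against streptozotocin gave 0.30, -0.32 and 0.37 in that order and did not pass (adjusted p = 0.4, 0.28 and 0.16).

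Kcnj11, the pore of the ATP-sensitive channel, read 1.18, 1.48 and 0.96 in control striatum, 1.44, 2.43 and 1.48 in Goto-Kakizaki striatum and 1.49, 1.51 and 1.45 after streptozotocin. Its Goto-Kakizaki difference of 0.58 ± 0.18 passed below 2-fold (adjusted p = 0.038), with pools that overlapped and 1 Goto-Kakizaki pool far above the others. The differences in the hippocampus and prefrontal cortex were 0.26 (adjusted p = 0.58) and 0.49 (adjusted p = 0.098), and those after streptozotocin were -0.01, 0.28 and 0.28 (adjusted p between 0.42 and 0.99).

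The subfamilies Kcnb, Kcnd, Kcne, Kcnmb, Kcnn and Kcnrg had no probe past the adjusted p in these control comparisons. The nearest was Kcnd2, the Kv4.2 channel of the dendritic A-type current, which read 1.62, 1.58 and 1.69 in control and 2.14, 2.01 and 2.24 in streptozotocin prefrontal cortex (0.50 ± 0.13, adjusted p = 0.052). Those pools did not overlap, which held for 32 of the 86 Kcn probes tested in this comparison. Kcnb2, a delayed rectifier, gave -0.45 ± 0.15 in the streptozotocin striatum (adjusted p = 0.1), with pools that overlapped. In streptozotocin hippocampus and prefrontal cortex it gave 0.37 and 0.42, without overlap (adjusted p = 0.24 and 0.15). Kcnmb2, a beta subunit of Kcnma1, gave 0.29 ± 0.11 in the streptozotocin striatum (adjusted p = 0.17). Kcnn3, a small-conductance calcium-activated channel, gave -0.40 ± 0.17 in the streptozotocin hippocampus (adjusted p = 0.25), and Kcnrg, a cytoplasmic regulator, gave 0.62 ± 0.44 there (adjusted p = 0.6).

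Set directly against streptozotocin rats, Goto-Kakizaki rats had 2 Kcn probes called higher in the hippocampus, of 86, where 2.76% of all probes were called and 1.16% called higher. Of the cortical probes 2 of 86 were called lower, against 3.53% called and 2.33% called lower. In the striatum 2 of 86 were called higher and 3 lower, against 4.94% called, 2.7% higher and 2.24% lower. Without the fold limit 13, 20 and 25 Kcn probes passed in the 3 regions, 15.1%, 23.3% and 29.1% of those tested, against 8.7%, 15.8% and 16.1% of all probes. Beside Kcnj12 and Kcnq5 these calls fell on Kcne2, Kcnk10, Kcns2, Kcng4, Kcnt2 and Kcna10.

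Kcne2, an accessory subunit that is abundant in choroid plexus epithelium, was 5.35-fold higher in Goto-Kakizaki than in streptozotocin hippocampus (2.42 ± 0.70, adjusted p = 0.034). Its levels there were -1.86, -4.41 and -2.65 in Goto-Kakizaki rats, -5.18, -5.68 and -5.32 after streptozotocin and -4.94, -4.56 and -1.24 in controls. The summed level of 5 choroid plexus markers in the same pools was 7.26, 4.39 and 6.75 in Goto-Kakizaki rats, 1.72, 1.95 and 1.74 after streptozotocin and 1.50, 1.58 and 6.95 in controls. The pools with the highest Kcne2 level were those with the highest marker level. In the same comparison 4 of the 5 markers were called higher, with a median log2 difference of 2.72, against 1.16% of all probes. Against controls its difference after streptozotocin was -1.81 ± 0.70 in the hippocampus and did not pass (adjusted p = 0.21). The part of choroid plexus in the Kcne2 difference was not tested. The Kcne2 call was lost without Goto-Kakizaki pool 1 (1.86, adjusted p = 0.18), Goto-Kakizaki pool 3 (2.26, adjusted p = 0.12) or any streptozotocin pool (adjusted p between 0.074 and 0.096).

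**Figure D3:**
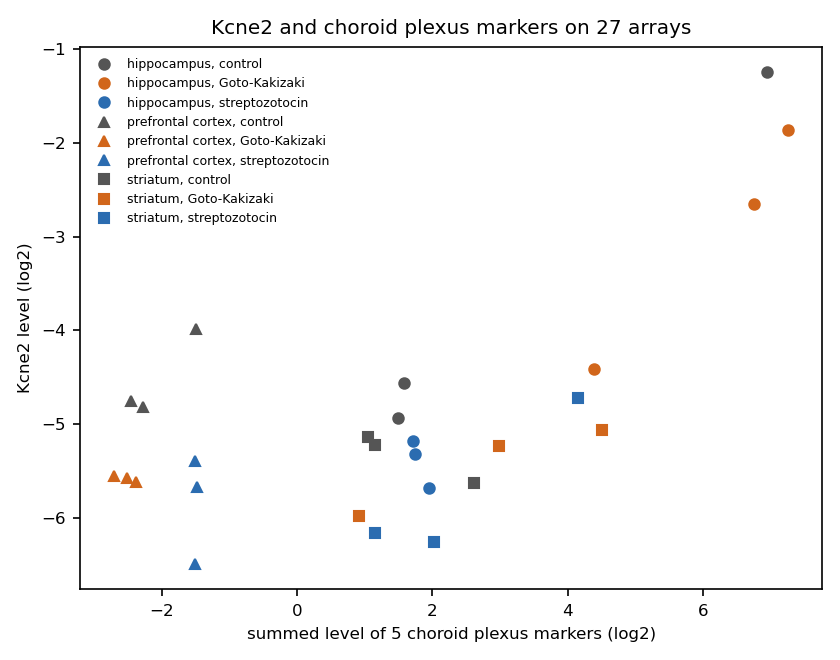
Log2 level of Kcne2 (vertical axis) against the log2 summed level of 5 choroid plexus markers (horizontal axis) on the 27 arrays, with a shape for each region and a colour for each animal group. The 3 hippocampal pools with a marker level above 6, at 7.26, 6.75 and 6.95, had the highest Kcne2 levels, -1.86, -2.65 and -1.24.

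In the striatum Kcns2, a silent subunit, read -1.99, -1.60 and -2.05 in Goto-Kakizaki rats, -3.18, -2.96 and -3.12 after streptozotocin and -1.88, -2.71 and -1.88 in controls, and was 2.31-fold higher in Goto-Kakizaki rats than after streptozotocin (1.21 ± 0.30, adjusted p = 0.012). Kcng4, a further silent subunit, read -2.72, -2.06 and -2.69 in Goto-Kakizaki rats, -3.53, -3.57 and -3.60 after streptozotocin and -2.74, -3.63 and -2.74 in controls, a 2.11-fold difference (1.08 ± 0.34, adjusted p = 0.037). Goto-Kakizaki pools stood above streptozotocin pools for both. All Goto-Kakizaki arrays of this comparison lay on slide 4 and the streptozotocin arrays on slides 1 to 3, so slide and group cannot be told apart. Striatal control pool 1, also on slide 4, read -1.88 for Kcns2 and -2.74 for Kcng4. On the 4 arrays of slide 6, none of them in this comparison, Kcns2 was -2.33, -2.41, -2.23 and -1.88 and Kcng4 was -2.86, -2.94, -3.04 and -2.74. Each was the highest or joint highest of its group, and the part of the slides was not tested. The Kcns2 call was lost without Goto-Kakizaki pool 2 (1.07, adjusted p = 0.067), and that of Kcng4 without the same pool or any streptozotocin pool (adjusted p between 0.072 and 0.19).

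Lower in Goto-Kakizaki than in streptozotocin striatum was Kcnt2, a sodium-activated channel, which at A_44_P381715 read -6.75, -7.02 and -5.51 in Goto-Kakizaki rats, -4.88, -4.66 and -5.15 after streptozotocin and -5.28, -5.88 and -5.30 in controls. It was not well above background on any Goto-Kakizaki striatum array, so the difference is a bound of at least 1.28-fold (adjusted p = 0.00072), where the bound sets the bright group's mean against the lowest signal well above background on each dim array or the probe's own, if higher. The second Kcnt2 probe, A_43_P21504, read -2.09, -1.73 and -1.77, then -1.33, -0.96 and -1.58, and differed in the same direction below 2-fold (-0.57, adjusted p = 0.025). Kcna10, the Kv1.8 channel, read -6.44, -5.67 and -5.27 in Goto-Kakizaki striatum and -4.63, -4.58 and -4.50 after streptozotocin (2.33-fold, -1.22 ± 0.41, adjusted p = 0.046), with 1 of the 3 Goto-Kakizaki arrays well above background.

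Kcnk10, the TREK-2 leak channel, read in the prefrontal cortex -3.72, -4.16 and -4.04 in Goto-Kakizaki rats, -2.95, -2.28 and -3.51 after streptozotocin and -3.26, -3.28 and -3.13 in controls. It was 2.08-fold lower in Goto-Kakizaki rats than after streptozotocin (-1.06 ± 0.30, adjusted p = 0.021). Goto-Kakizaki pools were the lowest of the region, and the call was lost without any 1 of 4 of the 6 pools (adjusted p between 0.052 and 0.12).

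Whether an effect of a diabetic group differed between regions was tested as the difference of the differences. No Kcn probe was called by limma in the 3 Goto-Kakizaki contrasts, where 0.181%, 0.361% and 0.129% of all probes were called for hippocampus against prefrontal cortex, hippocampus against striatum and prefrontal cortex against striatum. At an unadjusted p under 0.05 there were 16 of 87, 16 of 87 and 8 of 88 Kcn probes, where 11.3%, 17.6% and 12.1% of all probes were. The same contrasts for streptozotocin, added after the data were seen, also gave no called Kcn probe, with 0%, 0.769% and 0% of all probes called and 5, 18 and 9 Kcn probes at an unadjusted p under 0.05, of 87, 87 and 88, against 6.85%, 16.6% and 8.46% of all probes.

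The regions themselves differed far more than the animal groups. Between control striatum and hippocampus 12 Kcn probes were called higher in the striatum and 20 lower, 36.8% of 87 tested, where 8.98% of all probes were called, 4.15% higher and 4.82% lower. Against the hippocampus 12 were called higher and 8 lower in the prefrontal cortex, 23.3% of 86, where 5.16% of all probes were called, 2.69% higher and 2.47% lower. Between striatum and prefrontal cortex 8 were called higher in the striatum and 20 lower, 31.8% of 88, where 8.8% were called, 3.98% higher and 4.82% lower. Without the fold limit 52, 40 and 55 Kcn probes passed, 59.8%, 46.5% and 62.5% of those tested, against 29.9%, 16% and 25.4% of all probes. The median size of the log2 difference was 0.81, 0.51 and 0.71 over the Kcn probes in these comparisons and 0.37, 0.24 and 0.30 over all probes. The median signed difference of the Kcn probes was -0.15, 0.20 and -0.51, against 0.03, 0.02 and 0.00. The labels do not say whether equal numbers mark the same animals across regions, so regions were compared as separate pools.

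Classes are given by their median with 1 probe per gene and by their calls over all probes tested, repeat probes of a gene included. The 2-pore channels lay lowest in the striatum against the prefrontal cortex (median -0.96, 1 called higher and 4 lower of 10) and above the hippocampus in the prefrontal cortex for every probe (0.15 to 1.22, median 0.39). The modifying subunits had a median of -0.72 in the striatum against the prefrontal cortex, with 0 called higher and 3 lower of 11, and the calcium- or sodium-activated channels -0.70, with 1 higher and 3 lower of 9. Inward rectifiers had a median of -0.18 and 0 called higher and 4 lower of 14, the voltage-gated pores -0.21 with 3 higher and 4 lower of 30, and the auxiliary subunits -0.59 with 3 higher and 2 lower of 14. All classes lay below the median of 0.00 over all probes in this comparison. Within the voltage-gated pores the Kcna subfamily had a median of 0.38 and the Kcnb subfamily of -1.14.

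**Figure D4:**
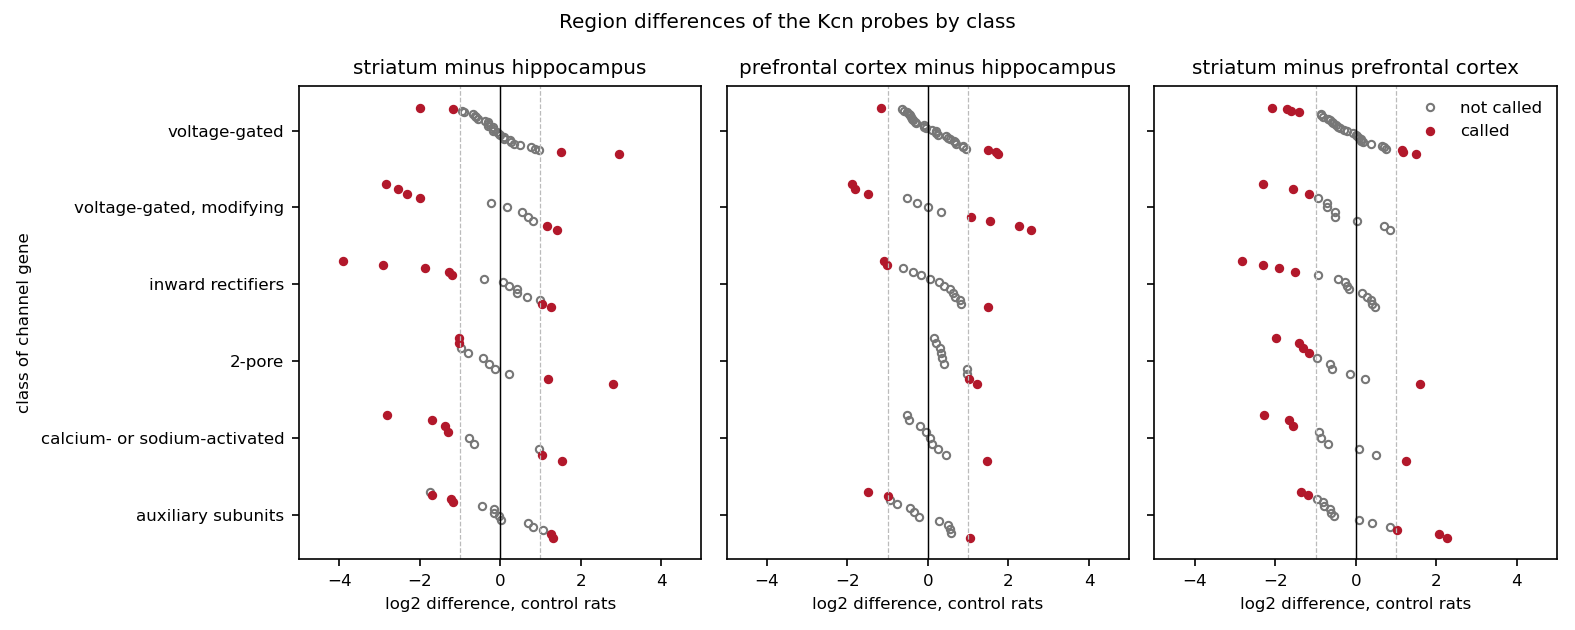
Log2 difference between regions in control rats (horizontal axis) for each Kcn probe, by class of channel gene (vertical axis), in 3 panels for striatum minus hippocampus, prefrontal cortex minus hippocampus and striatum minus prefrontal cortex. Filled points were called, open points were not, and dashed lines mark 2-fold; in the last panel 20 called probes lie to the left and 8 to the right.

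Hippocampus-high genes were led by Kcnj6 and Kcng2. Kcnj6 encodes Kir3.2, a G-protein-gated channel through which opioid, dopamine and GABA-B receptors silence neurons. At A_44_P182270 it read 1.55, 1.52 and 1.44 in control hippocampus, 0.65, 0.48 and 0.14 in prefrontal cortex and -2.17, -2.03 and -3.01 in striatum. The 3 regions did not overlap, and the striatum was 15.0-fold below the hippocampus (-3.91 ± 0.28, adjusted p = 7.7e-10) and 7.11-fold below the prefrontal cortex (-2.83 ± 0.28, adjusted p = 1.1e-07). The prefrontal cortex was lower than the hippocampus by -1.08 ± 0.28 (adjusted p = 0.0097). In the diabetic groups it read 1.27 to 1.61 in the hippocampus and -3.09 to -1.49 in the striatum.

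Kcng2 encodes Kv6.2, a silent subunit. A pair of its probes overlap on the transcript, with 20 shared bases in capitals, and are shown because their readings are not independent.
Kcng2 A_44_P536780: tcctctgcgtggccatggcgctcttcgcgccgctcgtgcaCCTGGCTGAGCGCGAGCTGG
Kcng2 A_44_P536779: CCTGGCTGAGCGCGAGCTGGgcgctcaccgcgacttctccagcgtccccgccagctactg
The third, A_44_P536774, read 0.04, -0.05 and -0.02 in control hippocampus, -1.72, -1.92 and -1.83 in prefrontal cortex and -2.56, -2.41 and -2.64 in striatum. All 3 probes were highest in the hippocampus, by -2.83 ± 0.22, -2.0 ± 0.20 and -2.53 ± 0.15 in the striatum against it (7.11-fold, 4.0-fold and 5.78-fold, adjusted p = 1.9e-09, 8.4e-08 and 2.8e-11 in the order A_44_P536780, A_44_P536779 and A_44_P536774). The prefrontal cortex against the hippocampus gave -1.89, -1.48 and -1.81 in that order. The remaining Kcng2 probe was well above background on 1 array and did not pass the filter.

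The striatum was marked by Kcna5, Kcnk2 and Kcnab1. Kcna5, the Kv1.5 delayed rectifier, read -4.57, -4.25 and -4.00 in control hippocampus, -2.66, -2.73 and -2.17 in prefrontal cortex and -1.31, -1.64 and -1.07 in striatum, 7.65-fold above the hippocampus (2.94 ± 0.18, adjusted p = 6.4e-11). Kcnk2, the mechanically and lipid-sensitive TREK-1 leak channel, read 2.53, 2.36 and 2.56, then 3.76, 3.73 and 3.60, then 5.05, 5.62 and 5.19 in the same order of regions, 6.99-fold higher in striatum than hippocampus (2.81 ± 0.18, adjusted p = 9.8e-11) and 3.01-fold higher than in prefrontal cortex (1.59 ± 0.18, adjusted p = 4.7e-07). For both genes the order was hippocampus, prefrontal cortex, striatum with no overlap.

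Kcnab1, a beta subunit that can inactivate Kcna channels, read 1.03, 1.05 and 0.89 in control hippocampus, 0.22, -0.26 and 0.00 in prefrontal cortex and 2.12, 2.29 and 2.35 in striatum at A_43_P11905. It was 4.8-fold higher in striatum than in prefrontal cortex at this probe (2.26 ± 0.18, adjusted p = 3.8e-09) and 4.21-fold higher at A_44_P442780 (2.07 ± 0.19, adjusted p = 2.8e-08). In Goto-Kakizaki striatum Kcnab1 was lower than in control striatum below 2-fold at both probes, with 1.97, 1.03 and 1.63 at A_43_P11905 (-0.71, adjusted p = 0.01) and -0.20, -0.66 and -0.55 against -0.05, -0.12 and 0.44 at A_44_P442780 (-0.56, adjusted p = 0.049). Kcna4, an inactivating A-type channel, was 2.8-fold higher in striatum than in prefrontal cortex (1.49 ± 0.17, adjusted p = 7.8e-07), and Kcnd1, Kv4.1 of the same current type, 2.22-fold higher (1.15 ± 0.15, adjusted p = 5.5e-06). Kcnip2, a calcium sensor of Kcnd channels, was 2.8-fold lower in prefrontal cortex than in hippocampus at A_44_P468380 (-1.49 ± 0.22, adjusted p = 4.6e-05). Kcnn3 gave 1.24 ± 0.17 in striatum against prefrontal cortex (adjusted p = 7.6e-06), and Kcnt1, a sodium-activated channel, 1.54 ± 0.22 in striatum against hippocampus (2.9-fold, adjusted p = 1.4e-05).

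Kcnj8, the ATP-sensitive channel pore of pericytes and vascular muscle, read 0.42, 0.08 and 0.48 in control hippocampus, 1.06, 1.16 and 1.13 in prefrontal cortex and 1.57, 1.77 and 1.45 in striatum (1.27 ± 0.16 in striatum against hippocampus, adjusted p = 3.7e-06). The summed level of mural cell markers in those pools was 1.29 to 1.34, 1.57 to 1.74 and 1.84 to 2.16, with 0 of 3 tested markers called, and their part was not tested. Kcnh4, an ether-à-go-go-like channel, read -4.26, -4.21 and -4.50 in control hippocampus and -2.65, -3.32 and -2.45 in striatum (2.86-fold, 1.52 ± 0.30, adjusted p = 0.00056). Its slide 6 arrays were again the highest of their groups, at -3.53, -2.92, -2.98 and -2.45.

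Genes low in the striatum were more numerous. Kcns3, a silent subunit of Kcnb channels, read -0.12, 0.26 and 0.04 in control hippocampus, 0.12, 0.11 and -0.05 in prefrontal cortex and -2.22, -1.96 and -2.59 in striatum, 4.97-fold below each of the others (-2.31 ± 0.15, adjusted p = 1.9e-10 against hippocampus and 4.1e-10 against prefrontal cortex). Kcnt2 was lower in striatum than in hippocampus at both probes, 6.96-fold at A_44_P381715 (-2.80 ± 0.27, adjusted p = 7.1e-08), where 1 of 3 striatal control arrays was well above background, and 3.26-fold at A_43_P21504 (-1.70 ± 0.16, adjusted p = 6.6e-08). Kcnk4, the TRAAK leak channel, was 3.98-fold lower in striatum than in prefrontal cortex (-1.99 ± 0.16, adjusted p = 7.5e-09), and Kcnj9 3.72-fold lower (-1.90 ± 0.19, adjusted p = 1.1e-07). Kcnmb2 was lower in striatum than in hippocampus (-1.69 ± 0.11, adjusted p = 2.1e-10).

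The prefrontal cortex was highest for several Kcnb-type and silent subunits. Kcnb2 read -2.56, -2.68 and -2.75 in control hippocampus, -0.99, -0.93 and -1.02 in prefrontal cortex and -3.25, -2.51 and -3.37 in striatum, 3.22-fold higher in prefrontal cortex than in hippocampus (1.69 ± 0.15, adjusted p = 5.2e-08) and 4.19-fold higher than in striatum (adjusted p = 1.5e-09). Kcnf1 read -5.70, -4.59 and -4.98, then -2.59, -2.49 and -2.53, then -3.39, -4.03 and -3.66 in the same order, 5.86-fold higher in prefrontal cortex than in hippocampus (2.55 ± 0.23, adjusted p = 6.3e-08). Cortical pools stood above all others at both genes.

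Kcns1, a silent subunit known in sensory neurons, read -3.03, -2.91 and -2.70 in hippocampus, -0.24, -0.64 and -1.0 in prefrontal cortex and -1.73, -2.11 and -2.75 in striatum (4.76-fold over hippocampus, 2.25 ± 0.29, adjusted p = 7.1e-06). Kcnv1 read 1.85, 1.89 and 1.88, then 3.45, 3.47 and 3.29, then 2.67, 2.90 and 2.48 (2.88-fold over hippocampus, 1.53 ± 0.13, adjusted p = 4.3e-08). Kcnh5, an ether-à-go-go channel, was higher in prefrontal cortex than in hippocampus (1.49 ± 0.32) and at least 2.5-fold higher than in striatum. Kcnh5 is given as a description with no test: it passed the detection filter only through the 3 prefrontal groups, with 1 of 3 control arrays well above background in the hippocampus and 0 of 3 in the striatum.

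Some probes kept to their region in every animal group. All 9 hippocampal arrays stood above the other 18 for 4 Kcn probes (Kcng2 at 3 probes and Kcnj6), 4.55% of the 88 against 1.61% of all probes, and below them for 6 (6.82% against 1.59%). All 9 prefrontal arrays stood above for 9 probes (10.2% against 2.02%), namely Kcnb2, Kcnf1, Kcnh1, Kcnh5, Kcnk1, Kcnk4, Kcnmb4, Kcns1 and Kcnv1, of which Kcnh5 had passed the filter only there, and below for 4 (4.55% against 1.62%). All 9 striatal arrays stood above for 6 (6.82% against 3.18%), namely Kcna5, Kcnab1 A_44_P442780, Kcnd1, Kcnk2, Kcnn3 and Kcnn4, and below for 14 (15.9% against 2.71%). The widest gaps were those of Kcns3, with -1.96 as the highest striatal level and -0.12 as the lowest elsewhere, and Kcnj6, with -1.49 and 0.14. Those members of the lists not in the named set were added after their values were seen.

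**Figure D5:**
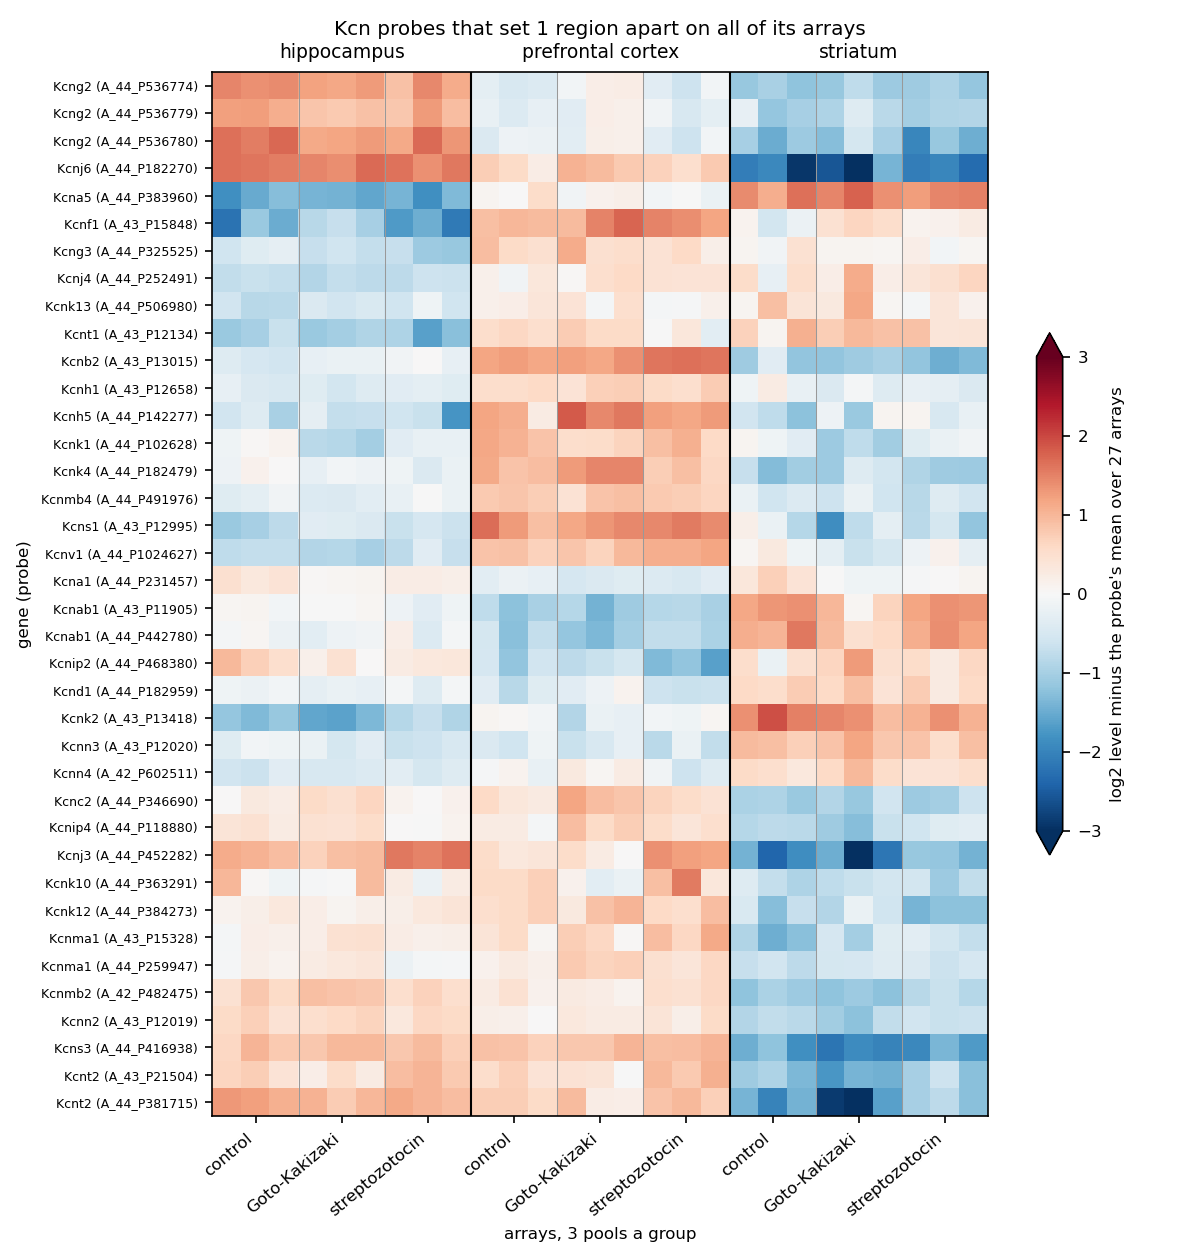
Colour map of the 38 Kcn probes that set 1 region apart on all of its 9 arrays, with probes as horizontal lines of cells (vertical axis, gene and probe) and the 27 arrays in columns by region and animal group (horizontal axis). Colour gives the log2 level minus the probe's mean over the 27 arrays, from -3 (blue) to 3 (red); blocks of one colour follow the regions and span the 3 animal groups.

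Of the 20 probes called lower in control striatum than in control hippocampus, 15 were called the same way in Goto-Kakizaki rats and 15 after streptozotocin, 13 in both. Of the 12 called higher in striatum than in hippocampus 8 and 9 were called again, 6 in both, and of the 8 called higher in striatum than in prefrontal cortex 7 and 8, 7 in both. Of the 20 called lower in striatum than in prefrontal cortex, 17 and 20 were called again, 17 in both, and of the 12 called higher in prefrontal cortex than in hippocampus 12 and 10 were, 10 in both. Of the 8 called lower in prefrontal cortex than in hippocampus only 3 and 4 were called again, 2 in both. The sign was kept for every probe apart from 1 of the 12 called higher in striatum than in hippocampus, which turned after streptozotocin. The shares of all probes called in Goto-Kakizaki rats were 14.3%, 6.28% and 13.4% for striatum against hippocampus, prefrontal cortex against hippocampus and striatum against prefrontal cortex, and after streptozotocin 7.76%, 6.55% and 9.76%. Those shares cover all tested probes in either direction, not only probes called in controls. How often other genes called in controls were called again is not given, so the shares are no measure of it.

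Probes of one gene did not all show the regional difference. Kcnj3, the Kir3.1 partner of Kcnj6, was 7.54-fold lower in striatum than in hippocampus at A_44_P452282 (-2.92 ± 0.27, adjusted p = 3.5e-08), where 1 of 3 striatal control arrays was well above background, and was called lower also at A_44_P247906 (-1.87 ± 0.39, adjusted p = 0.00092), likewise with 1 of 3. At A_43_P12612 it read 3.30, 3.27 and 3.39 in hippocampus and 3.27, 3.59 and 3.30 in striatum (0.07 ± 0.12, adjusted p = 0.7), and at A_44_P452163 the difference was -0.39 ± 0.29 (adjusted p = 0.32).

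Of 27 partner genes outside the family, which include channel anchors and the sodium pump, 25 were on the array and 23 were tested. None was called by limma against controls, and at an unadjusted p under 0.05 there were 2, 5 and 3 in Goto-Kakizaki and 4, 1 and 3 in streptozotocin hippocampus, prefrontal cortex and striatum, of 23 each. Over all probes those shares were 15.7%, 22% and 27.7%, and 14.2%, 15.4% and 18.1%. Below 2-fold, in the Goto-Kakizaki striatum Abcc9, the sulfonylurea receptor that pairs with Kcnj8, was higher (0.97, adjusted p = 0.016) and Dlg2, an anchor of Kcna channels, lower (-0.53, adjusted p = 0.012). Lrrc26, which shifts the gating of Kcnma1, was called lower in Goto-Kakizaki than in streptozotocin striatum (-1.50 ± 0.51, adjusted p = 0.049). Between control regions 4, 2 and 4 of the 23 were called for striatum against hippocampus, prefrontal cortex against hippocampus and striatum against prefrontal cortex, where 8.98%, 5.16% and 8.8% of all probes were. Dpp10, an accessory protein of Kcnd channels, was higher in prefrontal cortex than in hippocampus (1.42) and lower in striatum than in prefrontal cortex (-1.71). Abcc9, Dlg2 and Dpp10 were named after their values were seen.

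The 17 Kcn probes that did not pass the detection filter bound what can be said of their genes. For 13 of them no array of 27 was well above background, among them those of Kcna7, Kcne1, Kcne3, Kcnh8, Kcnj2, Kcnj15, Kcnq1 and Kcnv2, and 1 probe each of Kcnd3, Kcnj6 and Kcnmb1, whose genes had another probe that passed. Just outside the filter were Kcne4, well above background on 3 arrays but at most 1 of a group, and Kcnj1, Kcnk15 and the Kcng2 probe A_42_P520472 on 1 array each. Just inside it were Kcnh5, on 13 arrays in 3 groups, and a Kcnmb1 probe, A_44_P278569, on 7 arrays in 2 groups.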

How the data were processed

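Total RNA of the 3 brain regions was labelled with a single dye and hybridized to Agilent rat arrays, and the authors scanned them and extracted spot signals with Agilent Feature Extraction 9.1, per the file headers. The deposited files hold fluorescence intensity: the processed signal used here is background-subtracted and detrended within each array but not scaled between arrays, and the deposited value table holds the same numbers (largest relative difference 0.0). The files name no genome build, so gene positions are not given.

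Groups were taken from the labels. Each processed signal was divided by its array's 75th percentile and put on the log2 scale, with the percentile taken over the 41012 non-control probes (690.3 to 1527 signal units), after 2635 outlier values were left out. The 32078 probes that passed the detection filter were fitted with limma 3.58.1 in R 4.3.3 as 9 group means (18 residual degrees of freedom, estimated prior 2.56), each comparison used the probes that passed in either of its groups, and p-values were adjusted by Benjamini-Hochberg over all of them. The number of arrays, 3 per group, limits the precision. All 105 probes matched a RefSeq gene of the GRCr8 table. The members and gene lists were chosen with earlier results of these data known. Named genes were the Kcn probes called between animal groups, the 8 largest increases and 8 largest decreases in each region comparison of controls, the lowest p in each subfamily without a call, Kcnq3, Kcnj12 and Kcnj16, the other probes of those genes, and of the partner list those called or the 2 with the smallest p. Some genes that this rule names are not reported here. The fit was tested on simulated data. Alternatives were other scalings, background corrections, filters, blocks, tests and smaller sets of arrays. Same-numbered pools deviated together for streptozotocin against control prefrontal cortex (correlations 0.494, 0.474 and 0.716) and for streptozotocin prefrontal cortex against hippocampus (0.527, 0.325 and 0.718). In control striatum against prefrontal cortex pools 2 and 3 did so (0.548 and 0.598) and pool 1 did not (-0.183). Apart from that pool 1, each of these pairs shared a slide among slides 5 to 7, so no pairing by animal follows. The other correlations lay between -0.45 and 0.339. Figures were drawn with matplotlib 3.10.9.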

Additional observations from a re-analysis of the deposited data

How the results depend on the processing

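Over all results and alternatives, 3021 values stayed on their side of the threshold, 208 lost it and 12 gained it. Another 137 counts moved by over 1.5 times or values by more than the spread, and 6 reversed. These numbers take together region differences, differences between animal groups and values without a call. Calls between diabetic and control rats were fewer under several alternatives, with the counts given below. The 6 reversals arose with normexp background correction, namely Kcnj16 in streptozotocin against control striatum (-0.10) and, in control striatum against prefrontal cortex, Kcnk10 (0.17), Kcnt2 A_44_P381715 (0.03), Kcnj3 A_44_P452282 (0.19), Kcnf1 (0.10) and Kcnh5 (0.50). None of them reversed when normexp was fitted without 7 spots whose background far exceeded their signal on 2 arrays, an alternative added after the data were seen. Normexp moved the median of all probes by up to 0.46 on the log2 scale.

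Counts of called Kcn probes are given here in the order hippocampus, prefrontal cortex, striatum. Without the fold limit they were 5, 13 and 19 for Goto-Kakizaki against control, 2, 4 and 6 for streptozotocin against control, and 13, 20 and 25 for Goto-Kakizaki against streptozotocin, and 52, 40 and 55 for control striatum against hippocampus, prefrontal cortex against hippocampus and striatum against prefrontal cortex. With Benjamini-Hochberg adjustment the methods' t-test gave 1, 0 and 0, then 0, 0 and 0, then 1, 0 and 0, and 14, 10 and 5 for the regions, and unadjusted 2 for streptozotocin prefrontal cortex and 1 and 1 for Goto-Kakizaki against streptozotocin hippocampus and prefrontal cortex. Fits of the 2 groups alone gave 0 for Goto-Kakizaki striatum, streptozotocin prefrontal cortex and streptozotocin striatum, and 1 and 1 for Goto-Kakizaki against streptozotocin hippocampus and prefrontal cortex. Fits of 1 region alone gave 0 for streptozotocin prefrontal cortex and striatum, and 1 and 2 for Goto-Kakizaki against streptozotocin hippocampus and striatum. Normexp gave 0 for streptozotocin hippocampus and prefrontal cortex, 0, 1 and 1 for Goto-Kakizaki against streptozotocin, 20 (13 higher, 7 lower) for striatum against hippocampus and 13 for prefrontal cortex against hippocampus. Without the 7 spots it gave 0, 1 and 2 for Goto-Kakizaki against streptozotocin, 21 (8 higher, 13 lower) for striatum against hippocampus and 18 (7 higher, 11 lower) for striatum against prefrontal cortex. With slides 5 to 7 as covariates there were 0 for streptozotocin hippocampus, 3 for streptozotocin striatum, 1 and 4 for Goto-Kakizaki against streptozotocin hippocampus and prefrontal cortex, and 1 and 2 for the Goto-Kakizaki effect in hippocampus against prefrontal cortex and prefrontal cortex against striatum. Without those slides streptozotocin striatum had 3, and within slides 5 and 7 streptozotocin prefrontal cortex had 0 and 0, with 1 array on each side, which were assumed to vary like the other groups. The 50th percentile gave 2 for streptozotocin prefrontal cortex, and a filter of well above background on all arrays gave 1 and 3 for Goto-Kakizaki against streptozotocin hippocampus and striatum. The causes were not tested.

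Leaving out 1 pool gave 2 to 3, 2 to 3 and 2 to 4 for Goto-Kakizaki, 1 to 1, 0 to 2 and 1 to 2 for streptozotocin, 1 to 2, 1 to 3 and 2 to 7 for Goto-Kakizaki against streptozotocin, 32 to 35, 18 to 21 and 26 to 33 for the regions, and 0 to 0, 0 to 2 and 0 to 0 for the Goto-Kakizaki effect in hippocampus against prefrontal cortex, hippocampus against striatum and prefrontal cortex against striatum. The pools that moved a count by over 1.5 times were prefrontal cortex control 1 (2) and streptozotocin 3 (0) for streptozotocin prefrontal cortex, striatum control 3 and streptozotocin 2 and 3 (2 each) for streptozotocin striatum, hippocampus Goto-Kakizaki 1 and streptozotocin 1 and 3 (1 each), prefrontal cortex Goto-Kakizaki 2 and 3 and streptozotocin 1 and 2 (1 each), and striatum Goto-Kakizaki 2 (2) and streptozotocin 2 (3) for Goto-Kakizaki against streptozotocin, and striatum Goto-Kakizaki 1 (1) and control 1 (2) for the effect in hippocampus against striatum. With the replicate number as a block, no count of calls moved by over 1.5 times. Dim probes such as Kcne2, Kcnt2, Kcna10 and Kcnj3 A_44_P452282 lay near background, where signal limits what a fold can show.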

Other observations

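A further 3 probes belong to the Kcn family only under a newer symbol than the one on the array, and stood outside all counts above. Kcnip3, a calcium sensor that binds Kcnd channels, was well above background on all 27 arrays, with mean levels of -0.96, -0.25 and -0.59 in control hippocampus, prefrontal cortex and striatum. Its Goto-Kakizaki and streptozotocin differences were not called. Kcnk18, a 2-pore channel best known in sensory ganglia, was well above background on 16 arrays and was not called, and a further Kcnip2 probe, A_44_P144288, was well above background on 1 array.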
